A study of Mus musculus with 10 samples.

Results

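The genes described here encode the proteins of the cytosolic ribosome and their paralogs. Members were all probe sets that name 1 gene whose symbol starts with Rpl or Rps and a digit, or is Rplp0 to Rplp2 or Rpsa, without the ribosomal S6 kinases and without pseudogene symbols. The rule uses names only, and it found 106 probe sets of 50 genes, among 45101 probe sets on the array that name 18193 genes singly. Of these, 95 probe sets belong to 43 main genes and 10 to 6 paralogs whose symbols end in l or l1. The last is Rps19bp1, which encodes a protein that binds Rps19 and is not itself a ribosomal protein. Of 89 protein-coding symbols in RefSeq that match the rule, 49 have such a probe set and 40 do not, so the members are a part of the ribosome. Rps4l is listed there as a transcribed pseudogene.

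RNA was measured in stem cell-enriched bone marrow of 10 female mice aged 8 weeks on a B6.SJL background, 1 array per mouse. The 5 Mll-deficient mice had the genotype Mx1-cre;Mll F/F, and the 5 control mice were Mll F/F without cre, so loss of Mll and presence of cre cannot be told apart. Mll (Kmt2a) is a histone H3 lysine 4 methyltransferase. Mx1-cre is driven by an interferon-inducible promoter that is not restricted to blood cells. All 10 mice, controls included, received 3 injections of pI:pC, a double-stranded RNA mimic that induces interferon, at 10 µg per gram plus 50 µg, with 48 hours between them. On day 6, LSK/CD48- cells (lineage-negative, Sca-1-positive, Kit-positive and without CD48) were sorted, and RNA from 1500 to 10000 cells was amplified for Affymetrix Mouse Genome 430 2.0 arrays. The comparison asks which of these transcripts differ between these genotypes in such cells.

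A ribosome has a small (40S) and a large (60S) subunit, each built from ribosomal RNA and many small proteins that are made in balanced amounts. Most ribosomal protein mRNAs begin with a run of pyrimidines at the cap, the terminal oligopyrimidine or TOP motif, through which their translation follows growth signals. Some mammalian ribosomal proteins have a paralog that can take the place of the main protein in the ribosome. In humans, loss of 1 copy of any of several of these genes causes Diamond-Blackfan anaemia, a failure of red cell production.

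The sequences around the annotated starts show where the letters of such a pyrimidine run are present in paralogs and main genes. Each line below gives 60 bases before the start and 20 from it, 5′ to 3′ on the gene's strand, taken from RefSeq on GRCm38.p6. Capitals mark the longest run of C or T that touches the 20 bases on either side of the start, or the first of several equally long ones. The stretches are of the 2 paralogs that rose and have a main gene in RefSeq's promoter table, with those main genes, and of Rpl35, Rpl41 and Rpl27, main genes with a probe set that rose. Rpl7l1 also rose, but its main gene Rpl7 has no entry there, so its stretch is not shown.
Rpl22l1, chr3:28805448-28805527, + strand: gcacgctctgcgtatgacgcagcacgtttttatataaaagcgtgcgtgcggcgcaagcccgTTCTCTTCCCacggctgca
Rpl22, chr4:152325666-152325745, + strand: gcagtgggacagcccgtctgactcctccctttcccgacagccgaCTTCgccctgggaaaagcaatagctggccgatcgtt
Rps27l, chr9:66946026-66946105, + strand: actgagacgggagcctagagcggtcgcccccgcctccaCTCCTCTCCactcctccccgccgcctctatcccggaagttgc
Rps27, chr3:90213629-90213708, - strand: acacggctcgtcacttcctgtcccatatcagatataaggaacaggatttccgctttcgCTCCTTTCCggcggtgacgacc
Rpl35, chr2:39005112-39005191, - strand: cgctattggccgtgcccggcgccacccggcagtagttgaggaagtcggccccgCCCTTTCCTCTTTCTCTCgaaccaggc
Rpl41, chr10:128549149-128549228, - strand: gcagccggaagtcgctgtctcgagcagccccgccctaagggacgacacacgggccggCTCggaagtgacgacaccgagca
Rpl27, chr11:101442185-101442264, + strand: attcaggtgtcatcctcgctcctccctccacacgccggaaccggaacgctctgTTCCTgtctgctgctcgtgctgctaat

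The run was 18 bases long at Rpl35, 10 at Rpl22l1, 9 at both Rps27 and Rps27l, 5 at Rpl27, 4 at Rpl22 and 3 at Rpl41. It crossed the start at Rpl35 and Rps27 and lay just after it at Rpl22l1. At Rps27l, Rpl22, Rpl27 and Rpl41 it began 22, 16, 7 and 3 bases before the start shown. In those genes it also ended before that start, so it is not at the cap of a transcript that begins there. The counts below include such runs. At Rps27l and Rpl22 an unmarked run of the same length lies between the marked run and the start. Rpl22 and Rps27l have 2 annotated starts each, and the stretch shown is of 1 of them. Among genes that rose and are not shown, the run at the first-listed start was 3 bases long at Rpl7l1, 5 at Rpl37a, 9 at Rps24 and 11 at Rps18. Over the first-listed start of each gene, a run of at least 8 C or T within 20 bases of the start stood in 18 of the 38 main genes with an entry (47.4%) and in 3 of 5 paralogs, against 20.8% of all 27025 starts. The mirror-image run of A or G, counted the same way, stood in 3 main genes (7.89%), in 0 paralogs and in 22.8% of all starts. The motif CCGGAAG, a core of ETS factor sites, was sought on both strands in the 250 bases before and 50 after the start. It was found in 19 of 38 main genes (50.0%), in 2 of 5 paralogs and in 9.12% of all starts, Rpl41 and Rps27l among them in the stretches above. The run and the motif can share bases only at the motif's CC or, on the opposite strand, at its CTTCC.

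All values are MAS5 signals in arbitrary units. Differences are Mll-deficient minus control on the log2(signal + 16) scale, which understates changes of dim probe sets, with the standard error (SE) of the limma fit over all 27022 tested probe sets. A probe set rose or fell where its Benjamini-Hochberg adjusted p over those was below 0.05. Of the 106 members, 97 from 48 genes passed the filter on low signal. The other 9 probe sets had signals of at most 35.0 on every array, and they are an Rpl27a, an Rps4x, 3 Rps18, an Rps24, an Rps3 and an Rps16 probe set and the only one of Rpl3l, a paralog of Rpl3 known from striated muscle. All arrays had been scaled to the same trimmed mean of 150.001. The 3′ to middle ratio of control transcripts, a measure of RNA integrity, ran from 1.73 to 5.19 on the log2 scale in controls and from 2.36 to 3.86 in Mll-deficient samples. Control replicate 5 had the ratio of 5.19, and its mean correlation with the other controls was 0.918, where the other 9 arrays had 0.946 to 0.956 within their groups. Kmt2a passed the threshold at neither of its probe sets, with differences of -0.38 ± 0.36 (SE, adjusted p = 0.634) and -0.55 ± 0.30 (adjusted p = 0.347). The place of both on the transcript, inside or outside the deleted exons, is not given in the sources used here, so the genotype labels have no check from them.

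Markers of other cells moved with the groups. For comparison, 2.12% of all tested probe sets rose and 1.16% fell. Of 19 tested erythroid markers 13 were higher in Mll-deficient samples, with none of the 19 below the filter. The summed signal of the 19 was 4930 to 10300 in controls and 20800 to 24100 in Mll-deficient samples. Among those that did not pass, Slc4a1 was 2751 in control replicate 5. It was 11.1 to 97.2 in the other controls and 150 to 352 in Mll-deficient samples. Alas2 (130) and Epb42 (40.1) were also highest on that control array. Of 9 sort gate and stem cell markers 3 were lower, Mecom (-2.83 ± 0.38, adjusted p = 0.000842), Hlf (-1.48 ± 0.39, adjusted p = 0.0458) and Ptprc (-0.70 ± 0.19, adjusted p = 0.0487). Among 6 T and NK cell markers Thy1 rose by 1.38 ± 0.27 (adjusted p = 0.0116), and Cd3e, Cd3g and Cd4 were below the filter. No marker of megakaryocytes (9 tested, Gp6 below the filter), of granulocytes and monocytes (13), of B cells (8) or of stroma and endothelium (4, with Cdh5, Pecam1, Emcn, Col3a1 and Lepr below the filter) passed. The summed signal of the granulocyte and monocyte markers was 114000 to 174000 in controls and 122000 to 204000 in Mll-deficient samples. Among them Mpo, Elane, Prtn3, Ctsg and Ms4a3 were higher by 0.67 to 0.97 (adjusted p = 0.197 to 0.261). Itgam (-0.73), Lyz2 (-0.22) and Csf1r (-0.09) were lower, and the median difference of the list was 0.16. The part of all these markers' cells in the ribosomal protein values was not tested. In such sorted bulk samples more cells of a type and more RNA per cell cannot be told apart.

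Ribosomal protein probe sets were shifted upward in Mll-deficient cells. Of the 97 tested, 13 from 9 genes rose (13.4%) and 0 fell, where 2.12% of all tested probe sets rose and 1.16% fell. The difference was above 0 for 90 of 97, and the median was 0.49, against 42.9% above 0 and a median of -0.07 over all tested probe sets. Most ribosomal protein probe sets are bright. Among the 2562 tested probe sets with a mean signal of at least 1000, 5.23% rose, 1.8% fell, 54.5% were above 0 and the median was 0.06. Signals of the 2 groups did not overlap for 13 members, all higher, where 3.26% of all tested probe sets did so and 2.42% were apart in the lower direction; 10 of them are among the 13 that rose. At an unadjusted p below 0.05, 48 members were higher and 0 lower, against 8.06% and 10.3% of all tested.

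The count of 13 moved with single arrays. It was 5 without Mll-deficient replicate 5, 8 without Mll-deficient replicate 3, 8 without control replicate 3 and 8 without control replicate 4, and 10 to 14 without any of the other 6. With the 3′ to middle ratio as a covariate it was 33, the 13 among them, beside 5.26% of all tested probe sets.

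The share of the total signal of an array that fell on the tested members was 3.40%, 3.88%, 4.52%, 3.85% and 3.87% in control replicates 1 to 5 and 5.04%, 4.39%, 5.69%, 4.27% and 5.62% in Mll-deficient replicates 1 to 5. Mll-deficient replicates 2 and 4 lay below control replicate 3, so the groups overlapped. The 5 paralogs that passed the filter had 5 of 9 probe sets that rose (55.6%), with a median difference of 0.85. Those 5 probe sets belong to 3 genes, and 3 of them are of Rps27l. The main genes had 8 of 87 (9.20%), from 6 of 42 genes, with a median of 0.45. Over all tested probe sets 2.12% rose. The median mean signal was 272 for the paralog probe sets and 4800 for those of main genes. Their shares were not compared at matched signal.

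**Figure D1:**
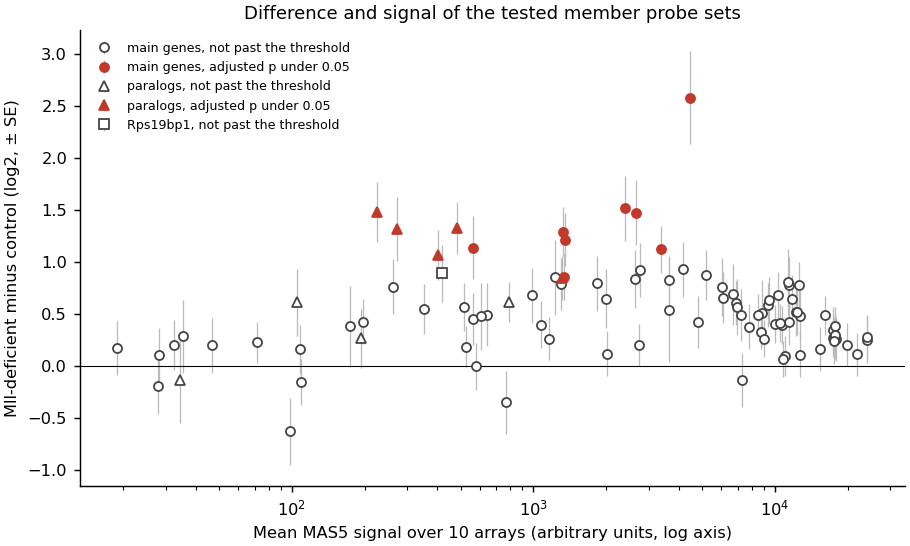
Difference of each of the 97 tested probe sets (vertical axis, log2, bars ± SE) against its mean signal over 10 arrays (horizontal axis, log scale), with filled red symbols for an adjusted p below 0.05, triangles for paralogs and a square for Rps19bp1. The probe sets that rose lie between signals of 100 and 5000, and 0 of the 27 with a mean of at least 10000 passed.

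Rps27l is the paralog of Rps27, a zinc finger protein of the 40S subunit, and it is known as a target of p53. It rose at all 3 of its probe sets. Probe set 1450925_a_at gave 313, 254, 271, 254 and 200 in control replicates 1 to 5 and 411, 510, 839, 702 and 1067 in Mll-deficient replicates 1 to 5. Every Mll-deficient sample lay above every control. The means were 258 ± 40.6 (SD, n = 5) and 706 ± 262, a difference of 1.33 ± 0.25 (adjusted p = 0.00944), and the call held without any 1 array. Probe set 1435429_x_at rose by 1.07 ± 0.24 (adjusted p = 0.0217), again with no overlap. Probe set 1423254_x_at rose by 1.32 ± 0.31 (adjusted p = 0.0256), and control replicate 1, at 220, lay above Mll-deficient replicate 2, at 202. The calls of these latter probe sets were lost without control replicate 3 or 4 or without Mll-deficient replicate 3 or 5, with adjusted p up to 0.0674 and 0.0806.

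Rpl22l1 is the paralog of Rpl22, a 60S protein that is needed for T cell development. Its single probe set gave 209, 81.4, 70.1, 123 and 82.2 in controls and 213, 240, 377, 382 and 464 in Mll-deficient samples. The groups did not overlap, though control replicate 1 came within a few units of Mll-deficient replicate 1. The means were 113 ± 57.3 (SD, n = 5) and 335 ± 105, a difference of 1.48 ± 0.29 (adjusted p = 0.0110), which held without any 1 array.

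Rpl7l1, the paralog of the 60S protein Rpl7, has 3 probe sets that did not behave alike. Probe set 1452049_at gave 1070, 854, 1094, 787 and 827 in controls and 1238, 1398, 1874, 1917 and 2075 in Mll-deficient samples. No Mll-deficient sample fell into the control range, and the difference was 0.85 ± 0.21 (adjusted p = 0.0336). That call was lost in 7 of the 10 fits without 1 array, those without control replicate 1, 2, 3 or 4 or Mll-deficient replicate 3, 4 or 5, with adjusted p up to 0.105, and with the replicate number as a block. Probe set 1426386_at also had groups that did not overlap, at 0.62 ± 0.19, and did not pass (adjusted p = 0.0905). Probe set 1439780_at gave 0.27 ± 0.28 (adjusted p = 0.675).

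The remaining tested paralogs did not pass. Rpl39l, known for its expression in male germ cells, gave 28.6, 53.1, 31.9, 7.14 and 46.7 in controls and 14.7, 66.7, 3.03, 12.8 and 81.0 in Mll-deficient samples. Its Mll-deficient values spread to both sides of the controls, and the difference was -0.13 ± 0.41 (adjusted p = 0.908). Rps4l gave 56.9, 149, 110, 81.3 and 25.2 in controls and 126, 125, 190, 101 and 90.1 in Mll-deficient samples, with overlap and a difference of 0.62 ± 0.32 (adjusted p = 0.328).

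To set paralogs against their main genes, the log2 difference between the brightest probe sets of each was taken within each array and a two-sided exact permutation test asked whether it changed between genotypes. The levels of different probe sets cannot be set against each other, so only the change is read. Rpl22l1 gained 1.06 ± 0.41 (SE, n = 5 per group) over Rpl22 (exact p = 0.0476), Rps27l gained 1.13 ± 0.42 over Rps27 (exact p = 0.0317) and Rpl7l1 gained 0.58 ± 0.20 over Rpl7 (exact p = 0.0159). Adjusted over the 5 pairs compared, each of these 3 had an exact p of 0.0793. With the probe sets of each gene averaged, the gain of Rpl7l1 over Rpl7 was 0.36 (exact p = 0.00794). It was 1.23 for Rpl22l1 over Rpl22 (exact p = 0.0159) and 1.04 for Rps27l over Rps27 (exact p = 0.0238). Averaged in this way, Rps4l changed by 0.57 against Rps4x (exact p = 0.238) and Rpl39l by 0.02 against Rpl39 (exact p = 0.968). The p-values of the averaged pairs were not adjusted over the pairs. At the brightest probe sets, Rps4l changed by 0.52 ± 0.49 against Rps4x (exact p = 0.373, adjusted 0.466). That value was 0.12 without control replicate 5 and 0.80 without control replicate 2. Rpl39l changed by 0.02 ± 0.58 against Rpl39 (exact p = 0.968), and the sign of this value turned with single arrays left out, from -0.34 without Mll-deficient replicate 5 to 0.35 without Mll-deficient replicate 3. At the brightest probe sets the groups overlapped in all 5 pairs. The smallest p that the design allows is 0.00794, which Rpl7l1 against Rpl7 reached with averaged probe sets.

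Of the main genes in those pairs, Rpl22 gave 8110, 7646, 13465, 7770 and 12388 in controls and 11915, 10188, 15324, 11446 and 16462 in Mll-deficient samples at its brightest probe set (0.42 ± 0.22, adjusted p = 0.311). Control replicates 3 and 5 lay within the Mll-deficient range. Rpl7 gave 0.27 ± 0.18 (adjusted p = 0.475) and Rps4x 0.10 ± 0.19 (adjusted p = 0.836). The only single-gene probe sets of Rps27 and Rpl39 had control means of 42.1 ± 16.7 (SD, n = 5) and 116 ± 32.4. They gave 0.20 ± 0.26 (adjusted p = 0.747) and -0.15 ± 0.22 (adjusted p = 0.786). The median signal of an array over all its probe sets was 18.1 to 28.9, so the Rps27 probe set read near the floor. The gain of Rps27l over Rps27 was thus not measured against a bright probe set of the main gene.

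**Figure D2:**
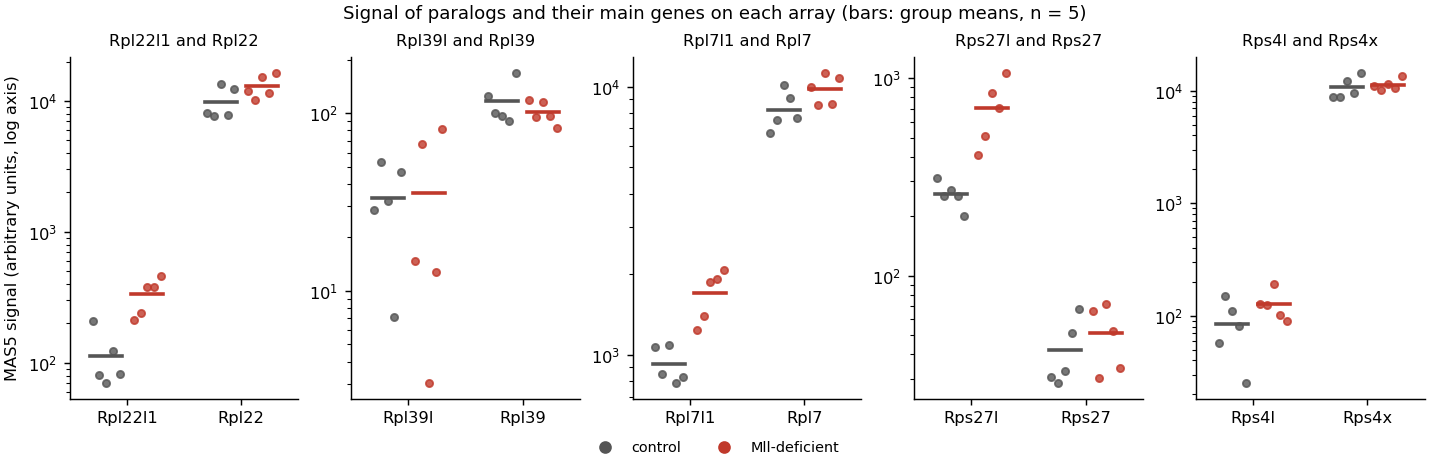
MAS5 signal (arbitrary units, log axis, a separate scale in each panel) of each paralog and its main gene on the 5 control (grey) and 5 Mll-deficient (red) arrays, with bars at group means. Rps27l, Rpl22l1 and Rpl7l1 are higher in all Mll-deficient samples than in all controls, while their main genes overlap between the groups.

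Among the main genes of the 60S subunit, 6 of 41 tested probe sets rose, from Rpl41, Rpl35, Rpl27 and Rpl37a, and the median difference was 0.57. Rpl41 is a peptide of very few residues and one of the smallest proteins known. Its probe set 1455578_x_at gave 683, 2822, 935, 1436 and 502 in controls and 6606, 4421, 14795, 2538 and 9821 in Mll-deficient samples. Control replicate 2 lay above Mll-deficient replicate 4, and the other 4 controls lay below every Mll-deficient sample. The means were 1275 ± 933 (SD, n = 5) and 7636 ± 4832, a difference of 2.58 ± 0.45 (adjusted p = 0.00505) that held without any 1 array. Probe set 1422623_x_at gave 1035, 1630, 1172, 1486 and 622 in controls and 3098, 2265, 6456, 2004 and 4071 in Mll-deficient samples. There the groups did not overlap, and the difference was 1.52 ± 0.31 (adjusted p = 0.0147), lost without Mll-deficient replicate 5 (adjusted p = 0.0511). The other 2 probe sets of the same gene moved little, 1454639_x_at by 0.12 ± 0.21 (adjusted p = 0.821) and 1433530_at by -0.00 ± 0.23 (adjusted p = 0.999). The positions of these probe sets on the transcript are not given in the sources used here.

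**Figure D3:**
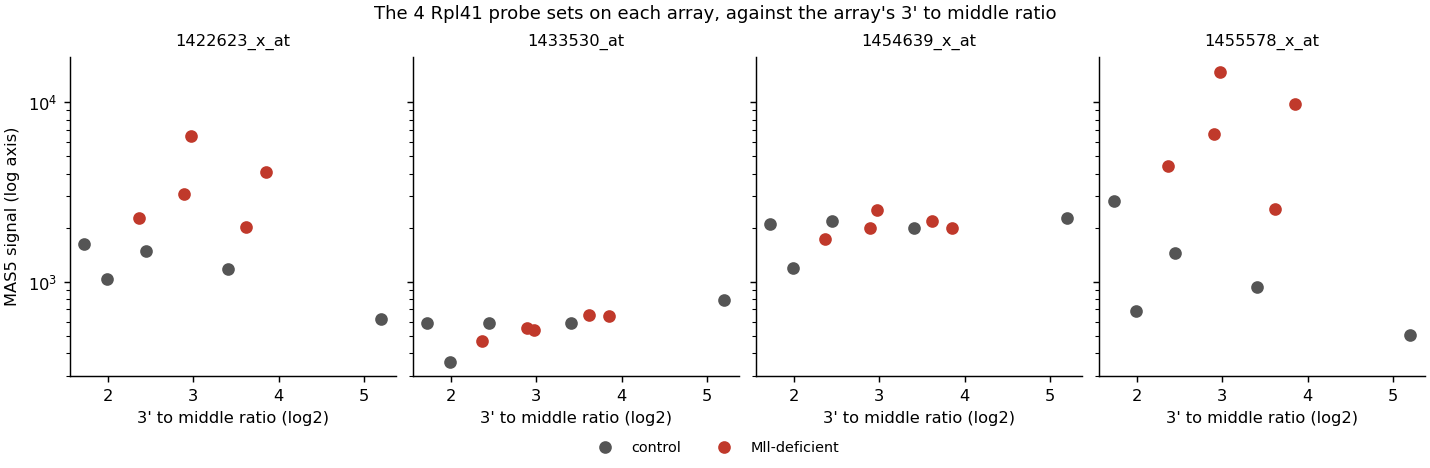
MAS5 signal (arbitrary units, log axis) of the 4 Rpl41 probe sets on each array, set against the array's 3′ to middle ratio of control transcripts (log2). At 1422623_x_at and 1455578_x_at the Mll-deficient arrays lie mostly above the controls. Only control replicates 3 (3.40) and 4 (2.45) have ratios within the Mll-deficient range of 2.36 to 3.86. Control replicate 5, at 5.19, is the lowest array at those probe sets and the highest at 1433530_at.

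Rpl35, a 60S protein near the exit of the peptide tunnel, has 6 tested probe sets. The probe set 1416243_a_at gave 950, 684, 944, 687 and 532 in controls and 1383, 1545, 2320, 1662 and 2570 in Mll-deficient samples. The groups were fully apart, with a difference of 1.29 ± 0.23 (adjusted p = 0.00711) that held without any 1 array. Probe set 1454856_x_at rose by 1.12 ± 0.23 (adjusted p = 0.0136), lost without Mll-deficient replicate 5 (adjusted p = 0.0511). The 3 brighter ones gave 0.65 to 0.78 (adjusted p = 0.0653 to 0.130) and the dim 1454833_at 0.21 ± 0.24 (adjusted p = 0.711).

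Rpl27 gave 1554, 2125, 1266, 1518 and 597 in controls and 3742, 3533, 6508, 2421 and 3193 in Mll-deficient samples at 1416099_at. Each Mll-deficient value was above each control value, and the difference was 1.48 ± 0.31 (adjusted p = 0.0157). Its other probe sets, 1448217_a_at and 1453096_x_at, gave 0.57 ± 0.27 (adjusted p = 0.270) and 0.49 ± 0.25 (adjusted p = 0.301). On those 2, control replicate 5 was the highest control, at 9581 and 9347, while on 1416099_at it was the lowest, at 597.

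Rpl37a, a zinc-binding 60S protein, gave 687, 659, 822, 901 and 810 in controls and 1711, 1141, 2989, 1328 and 2512 in Mll-deficient samples at 1416217_a_at. The groups did not overlap, and the difference was 1.22 ± 0.26 (adjusted p = 0.0164), lost without Mll-deficient replicate 5 (adjusted p = 0.0579). Its other probe sets gave 0.68 ± 0.23 (adjusted p = 0.116) and 0.38 ± 0.39 (adjusted p = 0.663).

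The 5S RNP, made of 5S ribosomal RNA with Rpl5 and Rpl11, joins the large subunit and can also bind Mdm2, the ubiquitin ligase of p53. Rpl11 was the 1 of these proteins with a single-gene probe set. It gave 2957, 2913, 3142, 3840 and 1480 in controls and 5696, 4643, 6385, 3242 and 7202 in Mll-deficient samples. Mll-deficient replicate 4 lay below control replicate 4, and the difference of 0.93 ± 0.27 did not pass (adjusted p = 0.0633). The P-stalk, which recruits translation factors to the large subunit, had probe sets of Rplp0 (0.51 ± 0.31, adjusted p = 0.408) and Rplp2 (0.88 ± 0.24, adjusted p = 0.0572). Rplp0 gave 7441, 11542, 8071, 8645 and 2546 in controls and 11385, 10926, 11145, 6953 and 9481 in Mll-deficient samples, so that control replicate 2 was the highest of the 10 arrays and control replicate 5 the lowest.

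In the 40S subunit, 2 of 46 tested probe sets rose, and the median difference was 0.37. Whether the subunits differ was not tested. Rps18, a protein of the small subunit's head, rose at 1448739_x_at, with 1102, 962, 902, 924 and 769 in controls and 1272, 1643, 1495, 1592 and 2750 in Mll-deficient samples. The groups did not overlap, and the difference was 0.86 ± 0.22 (adjusted p = 0.0424). This call was kept in 2 of the 10 fits without 1 array, those without control replicate 5 or Mll-deficient replicate 1. It was also lost with no filter, with no intensity trend and with a replicate block, with adjusted p up to 0.124 over the fits without 1 array. Its brighter probe sets gave 0.49 ± 0.20 (adjusted p = 0.204) and 0.26 ± 0.22 (adjusted p = 0.587).

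Rps24, a 40S protein with alternatively spliced last exons, rose at 1453362_x_at, with 334, 236, 473, 304 and 286 in controls and 687, 641, 753, 375 and 1545 in Mll-deficient samples. Control replicate 3 lay above Mll-deficient replicate 4, and the difference was 1.14 ± 0.30 (adjusted p = 0.0467). Of the 10 fits without 1 array only that without Mll-deficient replicate 4 kept the call, and adjusted p ran up to 0.124 in the others. It was also lost with an offset of 1, with no filter and with no intensity trend. At 1455195_at the same gene gave -0.62 ± 0.32 (adjusted p = 0.324), the lowest difference of the 97, where the values were 93.1, 106, 155, 211 and 51.3 in controls and 52.0, 146, 56.2, 61.6 and 48.6 in Mll-deficient samples. Control replicate 5 lay within the Mll-deficient values there, and so did control replicates 1 and 2. The other 6 tested probe sets with a difference below 0 included 1 of Rps9, a 40S protein, at -0.13 ± 0.26 (adjusted p = 0.846), and none of them passed.

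Disagreement between probe sets of 1 gene was common. Of 22 genes with at least 2 tested probe sets, the differences spanned over 1 on the log2 scale in 4 genes, which were Rpl41 (2.58), Rps24 (1.77), Rpl35 (1.09) and Rpl22 (1.03). In 17 of the 22 all differences were above 0, and the median span was 0.53. Rpl22 gave 0.68 ± 0.26 (adjusted p = 0.169) at 1416603_at and -0.35 ± 0.31 (adjusted p = 0.601) at 1448398_s_at. The probe sets of Rps28, Rps29, Rps3 and Rpl7 lay close together, at 0.19 to 0.40. Probe sets with the suffix _x_at, in which some probes may bind other transcripts, held 7 of the 13 that rose and 38 of the 97 tested. Those with _a_at, for alternative transcripts of 1 gene, held 4 of the 13 and 28 of the 97, and _s_at held 0 of 3. Ribosomal protein genes have many processed pseudogenes of nearly the same sequence. How far such copies add to a signal was not tested.

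**Figure D4:**
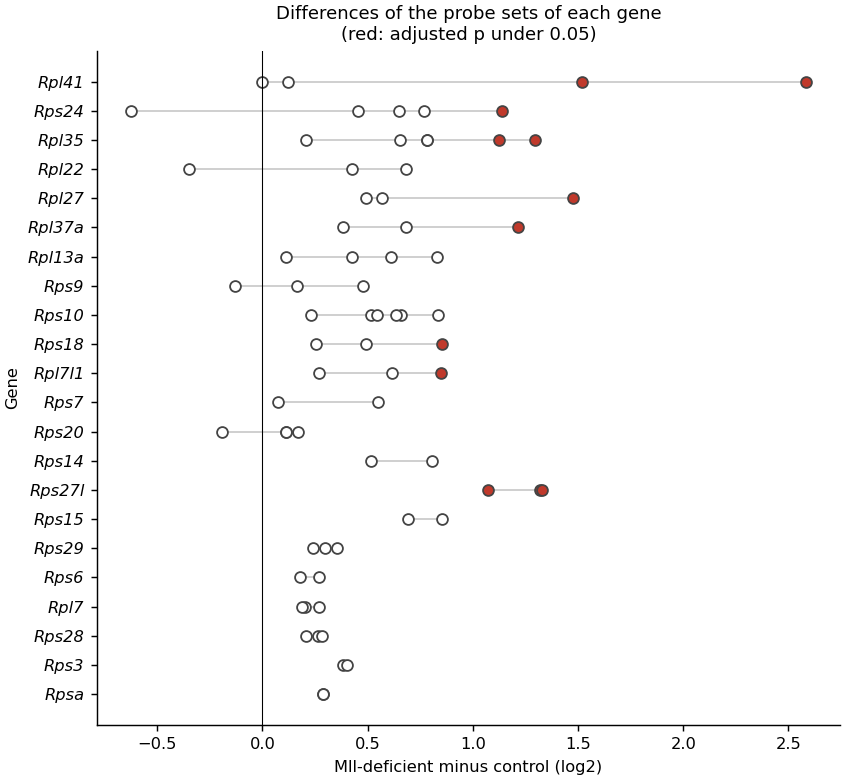
Mll-deficient minus control difference (log2) of every tested probe set of the 22 genes with at least 2, ordered by span, with red for an adjusted p below 0.05. Rps27l has all 3 points red, while Rpl41 has red points at 1.52 and 2.58 and open ones at 0.12 and -0.00.

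Control replicate 5, the array with the ratio of 5.19, was the highest control for 28 of the 97 probe sets and the lowest for 32. The 28 where it was highest had a median mean signal of 8880 and the 32 where it was lowest one of 2750. Of those 28, 0 rose, and of those 32, 6 rose. Both counts rest in part on this array's own values. Without this array 14 members rose.

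Of 20 Diamond-Blackfan anaemia genes, 12 had member probe sets, 36 of them tested. Of those, 4 rose (11.1%, beside 2.12% of all tested probe sets), and all belong to Rps24, Rpl27 and Rpl35 described above. At the brightest probe set of each gene 0 of 12 passed, with a median difference of 0.46. Rps19, the gene mutated most often in this anaemia, gave 1968, 2570, 1864, 2230 and 1001 in controls and 3726, 3005, 4918, 2386 and 4011 in Mll-deficient samples. Mll-deficient replicate 4 lay below control replicate 2, and the difference was 0.92 ± 0.26 (adjusted p = 0.0605). Rps14, whose loss is linked to the anaemia of the 5q- syndrome, gave 0.52 ± 0.21 and 0.81 ± 0.32 (adjusted p = 0.203 and 0.180). Rps26 gave 0.42 ± 0.18 (adjusted p = 0.230) and Rps28 0.21 to 0.28 at 3 probe sets. Rps29 gave 0.24 to 0.35 at 3 probe sets and Rps10 0.23 to 0.84 at 6, with adjusted p of at least 0.111. The probe sets of Rps20 and of Rps7 gave -0.19 to 0.17 and 0.07 to 0.55, with adjusted p of at least 0.229. Rps19bp1 gave 0.89 ± 0.28 (adjusted p = 0.0864).

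None of the 5 brightest probe sets passed, and control replicate 5 was the highest control at all 5. Their differences were 0.26 ± 0.22 for Rps18 (1455572_x_at), 0.29 ± 0.21 for Rpsa (1448245_at), 0.11 ± 0.21 for Rpl13a (1455485_x_at), and 0.21 ± 0.21 and 0.26 ± 0.21 for Rps28 (1451101_a_at and 1423763_x_at). For Rpsa, the laminin receptor and 40S protein, the values were 15310, 19566, 23933, 19644 and 30507 in controls and 28919, 21076, 30611, 20128 and 30823 in Mll-deficient samples, which overlap (0.29 ± 0.21, adjusted p = 0.508). By mean signal, 5 of 23 probe sets between 100 and 1000 rose, 8 of 22 between 1000 and 5000, 0 of 16 between 5000 and 10000 and 0 of 27 above, with medians of 0.55, 0.84, 0.54 and 0.35. At 9 probe sets under 100, 0 rose and the median was 0.18.

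Genes that work with the ribosomal proteins were read at the brightest probe set of each. Fau, whose protein is cleaved into a ubiquitin-like part and the 40S protein Rps30, gave 0.71 ± 0.22 (adjusted p = 0.0886). In a list of TOP genes outside the members, which holds elongation and initiation factors and also Fau, 0 of 17 passed, and the median difference was 0.15. Eef1a1 gave 0.16 ± 0.18 (adjusted p = 0.699), Tpt1 0.06 ± 0.21 (adjusted p = 0.913) and Npm1 0.60 ± 0.19 (adjusted p = 0.0924). Of 9 chaperones that carry ribosomal proteins to the nucleus or onto the ribosome, 2 rose and 0 fell, with a median of 0.48. Over all tested probe sets 2.12% rose and 1.16% fell. Heatr3, the carrier of Rpl5, went from 55.1 ± 16.2 (SD, n = 5) to 146 ± 18.6, a difference of 1.21 ± 0.22 (adjusted p = 0.00766). Grwd1, which binds Rpl3, went from 1077 ± 432 to 2188 ± 462, a difference of 1.07 ± 0.26 (adjusted p = 0.0295).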

How the data were processed

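The authors deposited 1 linear intensity per probe set and array, and the submitters' processing notes name MAS5 5.0. Symbols came from the platform annotation and were updated through Entrez identifiers and RefSeq (GRCm38.p6), which matched 34754 of 34958 probe sets with 1 symbol; 932 with several symbols and 9211 unnamed ones gave no member. Values were taken as log2(signal + 16). The 27022 probe sets with a mean above the 40th percentile (a signal of about 12.2) were fitted with limma 3.58.1 in R 4.3.3 (lmFit, then eBayes with an intensity trend). Tests were two-sided, and p-values were adjusted over all of them by Benjamini-Hochberg at a threshold of 0.05. The labels call the samples biological replicates, 1 mouse each. For arrays, their number limits the precision. On data simulated from this comparison's 27022 probe sets, 1 of 50 changes of 0.5, 14 of 50 of 1, 47 of 50 of 2 and 50 of 50 of 3 (log2) were recovered, with 3 false calls among 115. No other probe sets were changed in the simulation, while 887 were called in the data. With fewer changed probe sets the adjusted threshold is stricter, so recovery in the data may be understated.

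Members and lists were chosen with earlier results of these data known. Named genes were the paralogs with their main genes, every member that passed, the 8 largest and 8 smallest differences, the genes of the P-stalk, 5S RNP, Diamond-Blackfan anaemia and ubiquitin fusion lists, genes with spans over 1, the 5 brightest probe sets and passing members of the other lists; other names were chosen after their values were seen. Alternatives were the offset, between-array scaling, filter, variance model, array weights, replicate block, a 3′ to middle ratio covariate, probe set choice, threshold and leaving out each array. A split of the members by signal was added after seeing the data. Promoter windows were those of RefSeq on GRCm38.p6, 1 per gene.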

Additional observations from a re-analysis of the deposited data

Results flagged for a closer look

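In 36 probe sets, which are not all of the members, 72 groups of 5 arrays were examined for 1 array far from the other 4. An array was far where its gap to the nearest value was over 0.71 of the group's range. The count below is thus not one over all members. Chance gives about 1 in 20 groups, and 5 were found. Rps7 at 1419364_a_at had a signal of 8889 in Mll-deficient replicate 1, against 11413 to 12014 in the others. Rps20 at 1421935_at had 53.3 in control replicate 5, against 20.9 to 27.9. Rpl22 at 1448398_s_at had 385 in control replicate 5, against 865 to 1098. Rps27l at 1423254_x_at had 220 in control replicate 1, against 111 to 129; this is the array that overlaps the Mll-deficient range there. Rps24 at 1455195_at had 146 in Mll-deficient replicate 2, against 48.6 to 61.6. Of the 5, Rps27l at that probe set rose and the other 4 did not pass.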

How the results depend on the processing

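The number of member probe sets that rose was 13 and stayed within 11 to 16 under both other offsets, quantile normalization, median centring, both other filters, no intensity trend and array weights; 0 fell under any alternative. It was 33 with the 3′ to middle ratio as covariate, 6 with the brightest probe set per gene, 6 with probe sets averaged within genes, 3 at a threshold of 0.01, 21 at 0.10, 2 of 28 without _s_at, _x_at and _a_at probe sets, 8 of 65 at mean signals of at least 1000 and 5 of 32 under 1000. Thresholds and subsets of probe sets move the count by their construction; for the other settings the cause was not tested. Leaving out 1 array gave 5 to 14. All probe sets called, 887, became 588 with no filter, 2433 with the covariate and 303 to 1131 without 1 array. The medians of main genes and paralogs kept their direction under every alternative run.

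Among the pairs, Rpl39l minus Rpl39 reversed to -0.247 with an offset of 1, and ran from -0.344 to 0.346 without 1 array. Rps4l minus Rps4x was 0.30 with an offset of 64 and ran from 0.116 to 0.798 without 1 array. Rpl7l1 minus Rpl7 was 0.361 with probe sets averaged within genes and 0.488 to 0.707 without 1 array. Rps27l minus Rps27 was 1.112 with an offset of 1 (exact p = 0.0556), and Rpl22l1 minus Rpl22 was 0.759 with an offset of 64 (exact p = 0.0714). Without 1 array the latter pairs ran from 0.869 to 1.386 and from 0.813 to 1.342, with exact p up to 0.0635 and 0.103. The cause was not tested.

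The labels do not say whether same-numbered arrays were handled together. Deviations from the group means of same-numbered arrays correlated at 0.05, 0.12, -0.12, -0.18 and 0.24. The 3′ to middle ratio was lowest in replicate 2 of both groups (1.73 in the control, 2.36 in the Mll-deficient sample). It was highest in replicate 5 of both (5.19 and 3.86). A batch shared by number cannot be told from these values. With a replicate block 14 members rose. With the pairs of numbers sign-flipped as a block, Rpl22l1 minus Rpl22 (1.058), Rpl7l1 minus Rpl7 (0.584) and Rps27l minus Rps27 (1.13) each had an exact p of 0.125; with so few pairs such a test cannot reach 0.05.

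With 5 arrays a group, changes under 1 on the log2 scale were mostly not recovered in simulated data, so a member that did not pass is not shown to be unchanged. The offset weighs most on the lowest signals, and Rpl39l fell to 3.03 on 1 array. Since every array was scaled to 1 mean, changes in the total RNA of a cell are not measured.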

Other observations

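Ribosomal protein symbols also stand on 110 probe sets that name several genes and gave no member. Of these, 105 passed the filter on low signal, 9 were higher in Mll-deficient samples and 0 lower, and 96 had a difference above 0. Over all tested probe sets 2.12% were higher, 1.16% lower and 42.9% above 0. The median over the 105 was 0.34.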
